A study of Mus musculus with 109 samples.

Results

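The genes described here are the voltage-gated and potassium channel genes in a preparation of cerebellar granule cell progenitors (GCPs). The rule took every row of the count table whose symbol starts with Kcn, Cacn, or Scn or Hcn followed by a digit. Of the 15973 genes in the table, 72 met this rule. They comprised 5 sodium channel alpha and 2 sodium channel beta genes, 7 calcium channel alpha1 genes, 3 alpha2delta, 4 beta and 5 gamma genes, 15 pore-forming voltage-gated potassium (Kv) genes, 6 Kv auxiliary genes, 1 electrically silent Kv gene (Kcns2), 8 genes of calcium- or sodium-activated potassium channels, 9 inward rectifiers (Kir), 4 two-pore-domain leak channels (K2P), 2 hyperpolarization-activated channels (HCN) and Kcnrg, which carries the prefix but is not itself a channel.

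Cells were prepared on a Percoll gradient from mouse cerebella at P7, isolated singly on C1 Fluidigm chips and sequenced as 109 Smart-seq libraries. By clustering, the study assigned some of these cells to GCPs and the others to granule cells. The labels gave 6 library groups of 18 or 19 cells and did not tie cells to animals, so the spread between library groups may be partly technical. The labels give the strain as C57BL/6 for every cell, while the study's methods name ICR pups. All cells shared age and preparation, and no treatment is labelled.

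Classes were therefore set within the preparation by 2 genes. Mki67, which encodes the proliferation antigen Ki67, was at 100 CPM (reads scaled to the same total in every cell) or more in 32 cells (Mki67-high, 3 to 8 cells per library group) and under 10 CPM in 75 cells (Mki67-low, 10 to 15 cells), with 2 cells between the limits. Rbfox3, which encodes the neuronal nuclear protein NeuN, was at 100 CPM or more in 32 of the Mki67-low cells (Rbfox3-high) and under 10 CPM in 31 (Rbfox3-low). Mki67 and Rbfox3 were not exclusive of each other, since 10 of the 32 Mki67-high cells also had Rbfox3 at 100 CPM or more. Within each library group, the counts of all cells of a class were added up, so that each class gave 6 values, and these sums held 9376998 to 66286508 counts. In the preparation as a whole, a smaller share of expressing cells and less RNA per cell both lower such a sum, so the share of cells is given beside the sums.

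Voltage-gated sodium and calcium channels open when the membrane depolarizes, whereas potassium channels let potassium leave the cell and return the membrane towards rest. The pore-forming subunits carry the current, and auxiliary subunits set how many channels reach the membrane and how they gate. Dividing GCPs in the outer external granule layer are not yet firing neurons. As granule cells leave the cycle, extend parallel fibers and migrate inwards, calcium entry through voltage-gated channels is known to take part in their migration, and mature granule cells fire sodium spikes from a membrane held near rest by leak and inward rectifier potassium currents.

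The granule cell lineage was present in every library group. The 6 listed markers (Pax6, Zic1, Zic2, Barhl1, Neurod1, Meis1) summed to 2342 to 5812 CPM in Mki67-high and 3542 to 7084 CPM in Mki67-low sums. Not every cell carried them. At least 3 of the 6 were at 50 CPM or more in 28 of 32 Mki67-high and 63 of 75 Mki67-low cells. Among the Mki67-low cells this held for 22 of 31 Rbfox3-low and 29 of 32 Rbfox3-high cells. All 8 astroglial markers were listed and summed to 254 to 2006 CPM in Mki67-high and 334 to 3408 CPM in Mki67-low sums, and 5 cells had at least 4 of them at 50 CPM or more (3 Mki67-high and 2 Rbfox3-low). All 4 markers of GABAergic interneurons summed to 0 to 28.0 CPM in Mki67-high and 36.1 to 803 CPM in Mki67-low sums, and 8 cells had at least 2 of them at 50 CPM or more, none of them Mki67-high and 6 of them Rbfox3-low. The 7 markers of the oligodendrocyte lineage summed to 60.7 to 2451 CPM and 228 to 1363 CPM. At least 50% of them were at 50 CPM or more in 3 cells, all Mki67-high. The listed Purkinje cell, endothelial and microglial markers stayed at or under 67.1 CPM in every sum, with Pcp2, Ppp1r17, Pecam1 and Aif1 not in the table. Totals per cell ran from 15071 to 8616017 counts, and 2 Mki67-high cells had 13533 and 12684 genes with a count. Sums, shares and numbers per cell over all channel genes are also given without these 2 cells where they differ. The shares and medians of single genes and the sums by type include them.

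Promoter sequences were read for the channel genes with a RefSeq window (51 of 72, GRCm38.p6, 250 bases before to 50 after the start). Shown are the 120 bases upstream of the start of Cacna2d1, the channel gene expressed in the most cells, and of Kcnj3, Kcnj6 and Kcnk2, potassium channel genes that recur in the comparisons. Capitals mark a GC box (GGGCGG) or an E-box (CAGCTG) on either strand. The windows lie at chr5:15934571-15934690 (plus strand), chr2:55435850-55435969 (plus strand), chr16:94997697-94997816 (minus strand) and chr1:189402274-189402393 (minus strand), and each is written 5′ to 3′ on the strand of its gene.
Cacna2d1: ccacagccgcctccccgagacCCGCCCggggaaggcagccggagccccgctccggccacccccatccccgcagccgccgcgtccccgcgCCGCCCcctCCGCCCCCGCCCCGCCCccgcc
Kcnj3: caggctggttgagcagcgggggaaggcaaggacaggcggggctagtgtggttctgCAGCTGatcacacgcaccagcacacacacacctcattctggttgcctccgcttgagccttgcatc
Kcnj6: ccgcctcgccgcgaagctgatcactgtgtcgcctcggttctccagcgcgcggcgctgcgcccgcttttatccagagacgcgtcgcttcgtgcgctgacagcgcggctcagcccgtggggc
Kcnk2: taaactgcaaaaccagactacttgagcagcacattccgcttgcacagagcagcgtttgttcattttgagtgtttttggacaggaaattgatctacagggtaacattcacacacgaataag

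These 4 windows differed widely in composition, from 41.7% G and C in Kcnk2 and 60.8% in Kcnj3 to 70.8% in Kcnj6 and 86.7% in Cacna2d1. Cacna2d1 held 5 GC boxes, Kcnj3 held 1 E-box, and the other two held neither motif. Over the 300-base windows, the channel genes had a median of 62.0% G and C against 52.7% over all 32851 windows. A GC box lay in 25 of 51 channel gene windows (49.0%) against 35.7% of all windows, and an E-box in 15 (29.4%) against 16.3%. The letters TATAAA lay in 2 channel gene windows (3.92%) against 13.6% of all windows. The letters TTCAGCACC, from the binding sequence of the neuronal repressor REST, lay in 0 channel gene windows and in 0.371% of all windows. Motifs were searched on both strands, and a match describes letters only.

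Channel genes were sparse in single cells of the preparation. Of the 7848 values (72 genes in 109 cells), 78.8% were 0, against 70.9% over all genes, and 43.4% of the others were 1 to 5 counts. Such low counts were found in 23.3% of the remaining cells of a library group that held a cell with 1000 counts or more of the gene, against 3.76% in library groups without such a cell. Both shares pool different mixes of the 72 genes, and the source of the low counts was not tested. A gene was taken as expressed in a cell only at 10 CPM or more. By this limit 35 channel genes were expressed in at least 8 cells, 29 in 1 to 7 cells and 8 in none (Kcnk9, Kcnj8, Kcnj2, Kcnd1, Cacna1f, Cacna2d2, Cacng8 and Scn4a). Cacna2d1 was expressed in the most cells (53 of 109, 48.6%). It was followed by the sodium channel Scn8a (41), the inward rectifier Kcnj3 (33), the gamma subunit Cacng2 (27), the N-type calcium channel Cacna1b (26), Kcnj6 (25) and the P/Q-type channel Cacna1a (24).

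Levels were compared between genes only as CPM per kilobase of merged exons, averaged over the 6 library groups with all cells. Kcnk1, a K2P leak channel, had the highest mean (37.3 ± 29.6, SD), ahead of Kcnj3 (32.5 ± 27.1), the A-type Kv channel Kcnd2 (28.6 ± 35.5), Cacng2 (27.6 ± 23.1), Cacna2d1 (27.5 ± 15.9) and Cacng4 (22.3 ± 34.5). Their SDs span the differences between neighbours, so no order among these 6 genes is given. Kcna1 (13.3 ± 12.8), Kcnj6 (10.6 ± 6.74), Cacna1b (9.57 ± 6.27) and Scn8a (8.78 ± 7.19) were lower per kilobase although Scn8a, Cacna1b and Kcnj6 were expressed in more cells than Kcnk1 (23). Single cells set many of these levels. The cell with the highest value held 15.3% of the summed CPM of Kcnj3, 15.6% of Scn8a and 19.3% of Cacna2d1, but 75.7% of Scn3b, 85.5% of Kcnab2, 98.6% of Kcns2 and 99.7% of Kcna6. Exons of Cacng2, Cacna1a, Kcnh7 and Kcnj13 overlap a gene on the other strand, and since the strand setting of the counting is not given in the sources used here, their reads could include those of the partner.

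**Figure D1:**
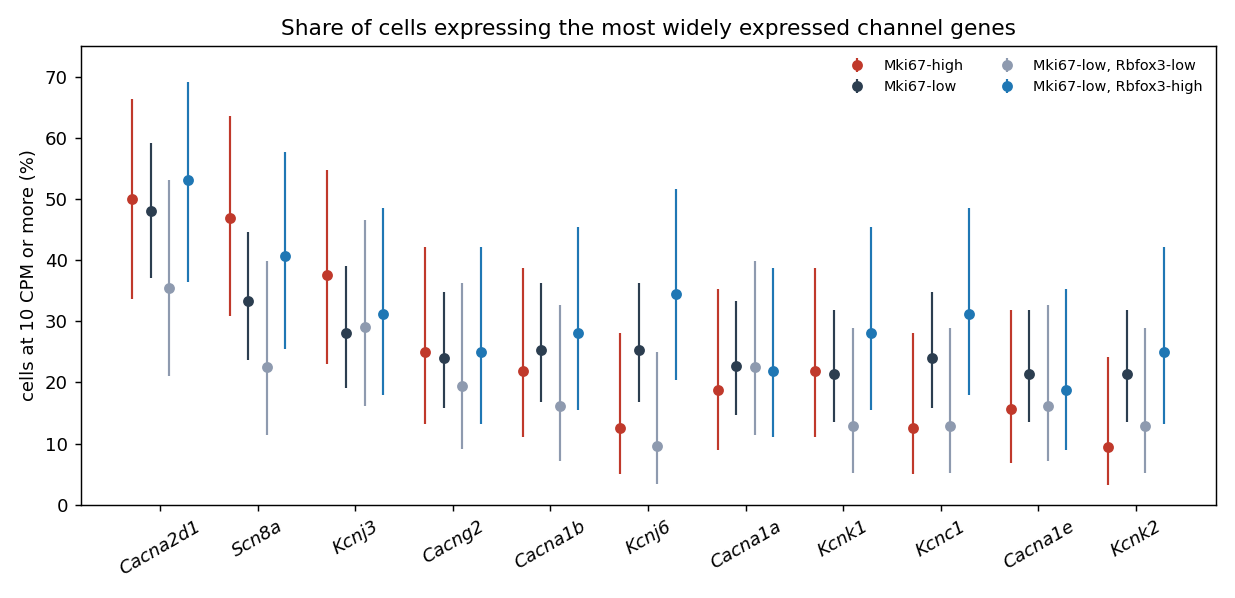
Share of cells (%) at 10 CPM or more (y axis) for 11 channel genes expressed in at least 20 cells (x axis), in Mki67-high (32 cells), all Mki67-low (75), Mki67-low Rbfox3-low (31) and Mki67-low Rbfox3-high cells (32), with Wilson intervals at 95%. Cacna2d1 lies near 50% in both Mki67 classes, and Kcnj6 stands at 9.68% in Rbfox3-low and 34.4% in Rbfox3-high cells.

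The first comparison asked how channel genes differed between Mki67-high and Mki67-low cells, classes set by Mki67 RNA alone. The 72 genes together had 1618 ± 686 CPM (SD, n = 6 library groups) in Mki67-high sums, with a lowest value of 327, a median of 1872 and a highest of 2165. In Mki67-low sums they had 2904 ± 754 CPM, from 2035 through a median of 2684 to 3831. The summed CPM was lower in the Mki67-high sum of every library group (6 of 6), although the ranges of both classes overlapped. It was lower in 6 of 6 also without the 2 many-gene cells (1697 ± 762 CPM in Mki67-high sums) and without cells carrying interneuron markers (3086 ± 669 CPM in Mki67-low sums), and in 5 of 6 without cells carrying astroglial markers (1710 ± 766 against 2878 ± 771 CPM). As a score over the members, this sum was given no test.

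**Figure D2:**
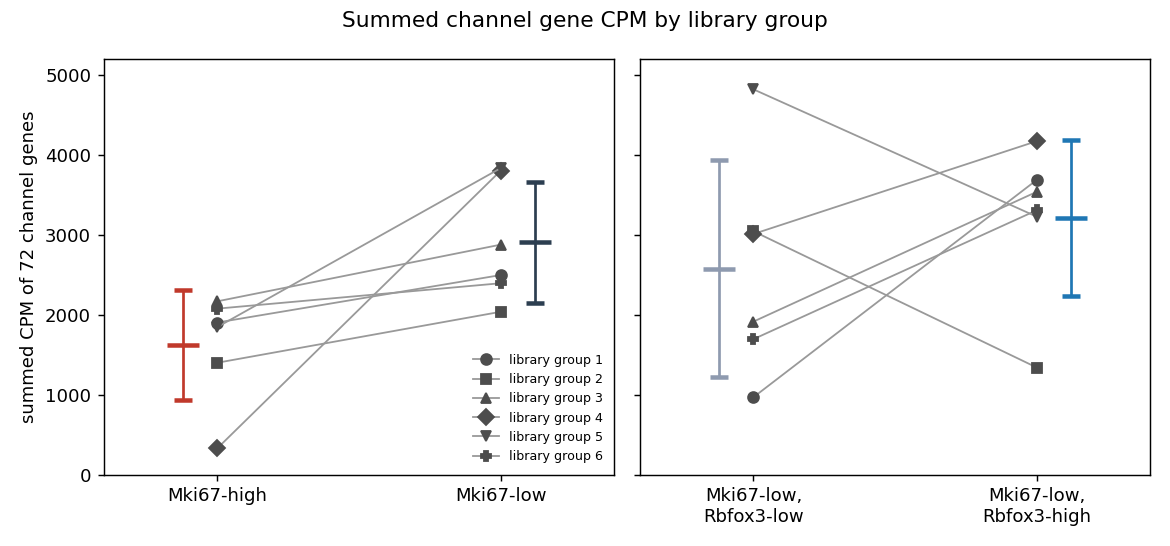
Summed CPM of the 72 channel genes (y axis) in each of the 6 library groups, in Mki67-high and Mki67-low sums (left) and in Rbfox3-low and Rbfox3-high sums of Mki67-low cells (right). Lines join sums of 1 library group, and the offset bars give mean ± SD. All 6 lines rise from Mki67-high to Mki67-low, and 4 of 6 rise from Rbfox3-low to Rbfox3-high.

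The share of values expressed and the level of those expressed were compared separately. At 10 CPM or more, 9.59% of the channel gene values of Mki67-high cells were expressed, against 8.22% in Mki67-low cells. Over all genes these shares were 16.5% and 11%. The level of the expressed channel gene values had a median of 57.7 CPM in Mki67-high and 156 CPM in Mki67-low cells, against 99.98 and 157 CPM over all genes. Among the 35 channel genes expressed in at least 8 cells, 21 were expressed in a larger share of Mki67-high cells, but 30 had a lower median CPM among expressing Mki67-high cells. The many-gene cells moved these values. Without them the share in Mki67-high cells was 7.45%, against 14.1% over all genes, and the median was 85.3 CPM, against 133 CPM over all genes. Then 13 of 35 genes had a larger share, 20 a smaller and 2 an equal share, and 22 of 34 had a lower median.

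Counted per cell, 16.3 ± 4.71 channel genes had at least 1 count in Mki67-high cells and 14.8 ± 1.28 in Mki67-low cells (mean ± SD of 6 library group means). After thinning every cell to 1110182 counts the numbers were 12.6 ± 4.80 and 11.2 ± 1.06. At 10 CPM or more they were 6.51 ± 3.84 and 5.93 ± 0.785. Without the many-gene cells, Mki67-high cells had 13.9 ± 1.25 channel genes with a count, 10.3 ± 1.83 after thinning and 5.28 ± 2.10 at 10 CPM or more, so the difference between classes changed direction with 2 cells. These cells had 62 and 56 channel genes with a count, and 29 and 31 at 10 CPM or more, and both also carried astroglial markers and Rbfox3 at 100 CPM or more.

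**Figure D3:**
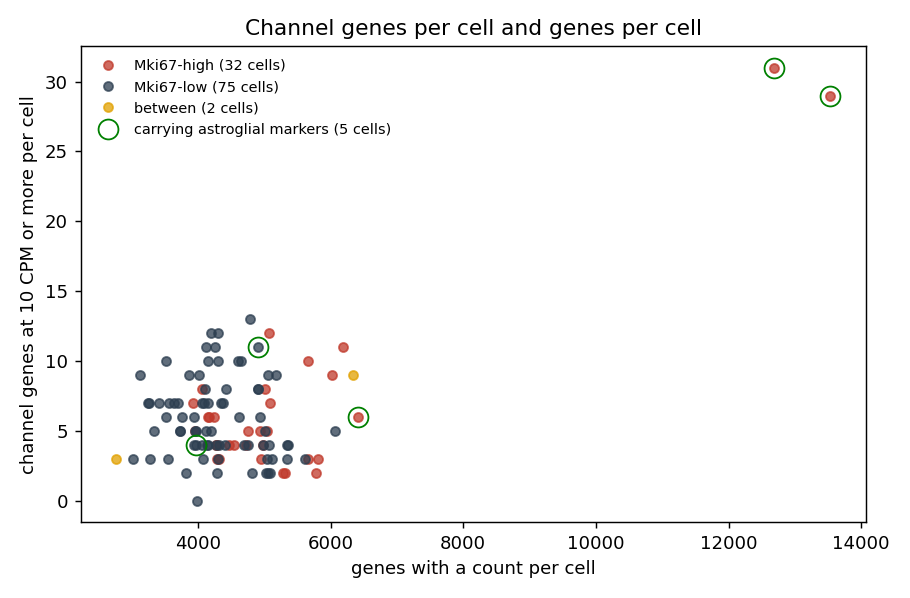
Number of channel genes at 10 CPM or more (y axis) against genes with a count (x axis) in each cell. Shown are Mki67-high cells (32), Mki67-low cells (75) and the cells between the limits (2), with rings around the 5 cells carrying astroglial markers. The 2 cells with 13533 and 12684 genes lie apart from all others, with 29 and 31 channel genes.

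The edgeR quasi-likelihood test on the sums called no channel gene at an adjusted p-value under 0.05 (0 of 36 tested), where 0.0661% of all 9084 genes tested were called. At an unadjusted p under 0.05 it called 5 of 36, where the background was 7.33%, and the smallest adjusted p of a channel gene was 0.428. DESeq2 on the same sums called 5 channel genes against a background of 6.54%, and limma-voom called none. The fitted log2 fold change was below 0 (lower in Mki67-high) in 30 of 36 channel genes, with a median of -1.54, and in 54.8% of all genes, with a median of -0.18. The channel genes were not tested as a list. The biological coefficient of variation between sums of a class was 172%. The 36 genes are those that passed the filter on low counts and are not the whole set. Mki67-high sums held 3 to 8 cells and Mki67-low sums 10 to 15. A gene carried by few cells is more easily missed by a sum of fewer cells, and its part in these directions was not tested. A fit with equal numbers of cells is given with the alternatives.

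By type, the members tested lay below 0 in every one of 5 calcium channel alpha1 genes (median log2 fold change -1.97), 3 beta genes (-1.10), 3 inward rectifiers (-1.77), 2 K2P genes (-2.22) and 2 sodium channel alpha genes (-1.82), and in 9 of 10 pore-forming Kv genes (-3.33). Kv auxiliary genes were divided (2 of 4 below 0, median 1.14), as were the gamma genes Cacng2 and Cacng4 (1 of 2). Both genes of the BK channel that were tested, Kcnma1 and its auxiliary subunit Kcnmb4, lay above 0. In summed CPM, the alpha1 genes had 113 ± 123 in Mki67-high and 441 ± 259 in Mki67-low sums and were lower in 5 of 6 library groups. Kir genes had 138 ± 187 against 352 ± 200 CPM and were lower in 6 of 6. Kv pore genes had 345 ± 464 against 741 ± 300 CPM, lower in 5 of 6, whereas Kv auxiliary genes had 197 ± 222 against 68.9 ± 88.4 CPM, lower in 3 of 6.

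**Figure D4:**
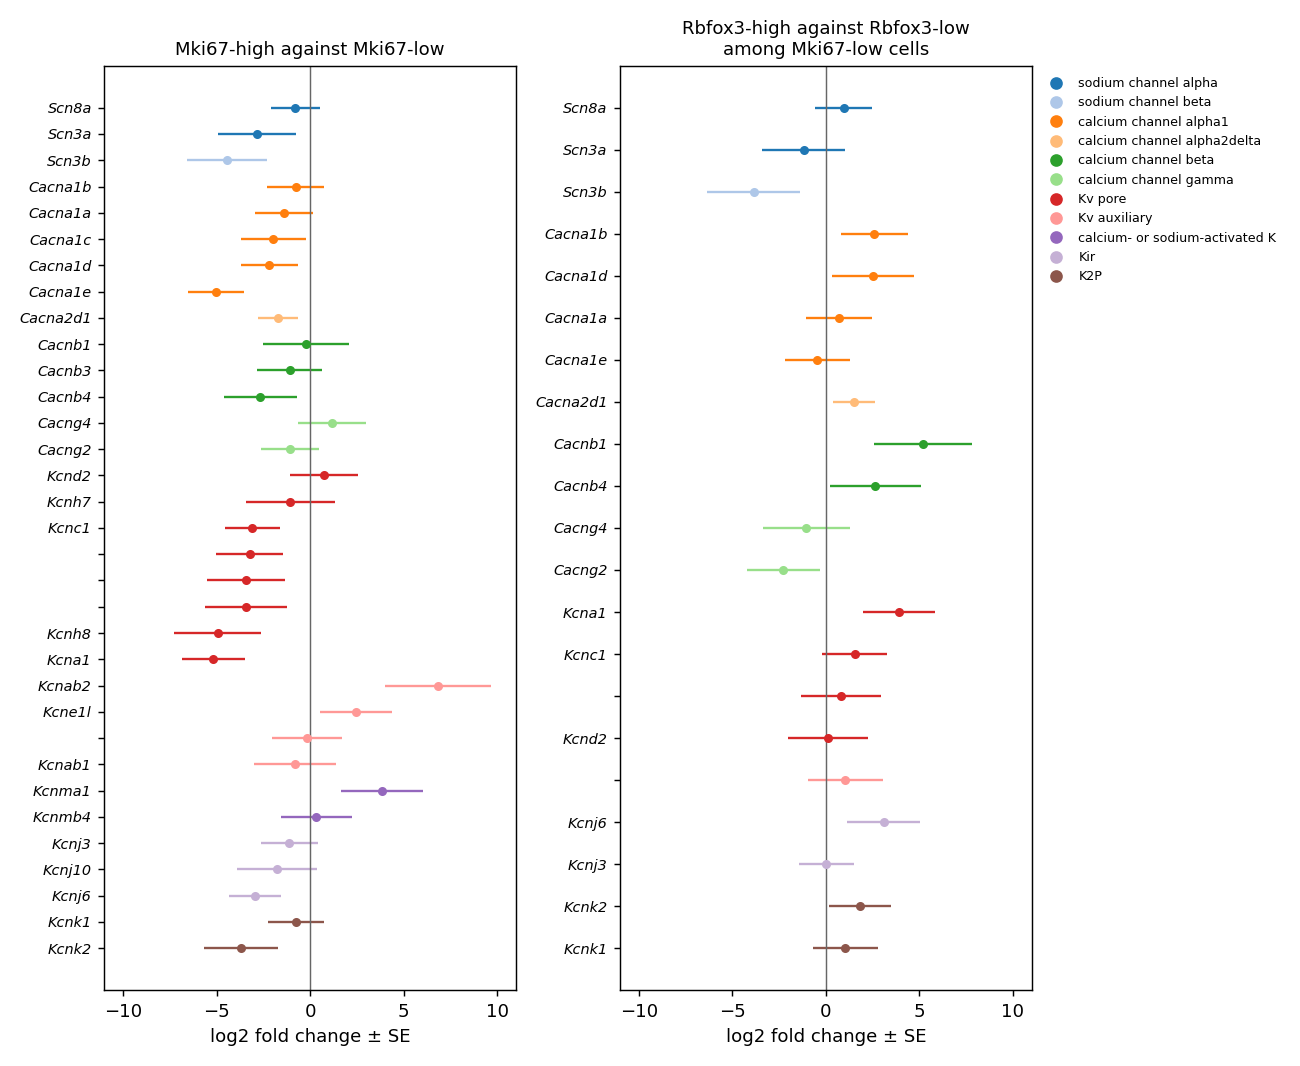
Log2 fold change ± SE (x axis) of channel genes tested with edgeR (y axis), coloured by channel type and with symbols for genes named in the text, for Mki67-high against Mki67-low (left, 33 genes) and Rbfox3-high against Rbfox3-low among Mki67-low cells (right, 21 genes). On the left 27 of 33 points lie below 0, on the right 16 of 21 lie above 0, and no gene passed the adjusted threshold. Not drawn are 3 and 2 further genes tested, which all lay below 0.

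Among calcium channel pore genes, Cacna1e, which encodes the R-type channel (chromosome 1, 154390731 to 154884501, minus strand), had the smallest unadjusted p in this comparison. Its Mki67-high sums ran from 0 through a median of 5.27 to 21.0 CPM and its Mki67-low sums from 2.32 through 114 to 673 CPM. It was lower in Mki67-high sums in 5 of 6 library groups, and the ranges overlapped only through library group 2 (5.44 against 2.32 CPM). The edgeR log2 fold change was -5.03 ± 1.51 (SE, adjusted p = 0.428), and DESeq2 gave -4.87 (adjusted p = 0.00257). The share of cells expressing it differed little, with 5 of 32 Mki67-high (15.6%) and 16 of 75 Mki67-low cells (21.3%), while the median of expressing cells was 32.6 and 507 CPM.

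Cacna1b, the N-type channel of presynaptic terminals, had Mki67-high sums from 0 through a median of 8.47 to 342 CPM and Mki67-low sums from 32.2 through 65.3 to 263 CPM. It was lower in 5 of 6 library groups, and the highest value of both classes was a Mki67-high sum, that of library group 2. Its log2 fold change was -0.77 ± 1.51 (edgeR adjusted p = 0.932). The P/Q-type channel Cacna1a (-1.38 ± 1.55) and the L-type channel Cacna1d (-2.19 ± 1.53) lay below 0 as well, with edgeR adjusted p of 0.883 and 0.779. Cacna1c, another L-type channel, had -1.97 and was tested in the same fit, while Cacna1h and Cacna1f, at or under 81.7 CPM in their highest cell, were not tested.

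Cacna2d1 (chromosome 5, 15934691 to 16374511, plus strand) encodes an alpha2delta subunit, which carries calcium channels to the membrane. Its Mki67-high sums ran from 0.2995 through a median of 82.5 to 632 CPM and its Mki67-low sums from 80.0 through 333 to 786 CPM. The classes overlapped, with the lowest Mki67-high sum in library group 1 and the highest in library group 6, and it was lower in 4 of 6. It was expressed in 16 of 32 Mki67-high (50%, 33.6 to 66.4% by a Wilson interval at 95%) and 36 of 75 Mki67-low cells (48.0%, 37.1 to 59.1%). The log2 fold change was -1.71 ± 1.07 (edgeR adjusted p = 0.758).

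The gamma genes did not share 1 direction. Cacng2, which encodes stargazin, an auxiliary subunit of AMPA receptors required in cerebellar granule cells, was lower in only 3 of 6 Mki67-high sums (log2 fold change -1.09 ± 1.56, edgeR adjusted p = 0.908). Its relative Cacng4 was higher in 5 of 6 (1.18 ± 1.83, adjusted p = 0.915). Together the 5 gamma genes had 182 ± 116 CPM in Mki67-high and 184 ± 183 CPM in Mki67-low sums, a difference smaller than either SD.

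Scn8a, the sodium channel of mature initial segments (chromosome 15, 100869858 to 101045938, plus strand), had Mki67-high sums from 3.29 through a median of 30.4 to 439 CPM and Mki67-low sums from 0.699 through 127 to 340 CPM. Ranges overlapped almost wholly, and the gene was higher in Mki67-high sums in 4 of 6 library groups. More Mki67-high cells expressed it (15 of 32, 46.9%, against 25 of 75, 33.3%), at a lower median (45.3 against 191 CPM). The log2 fold change was -0.79 ± 1.32 (edgeR adjusted p = 0.923). Scn3b, a sodium channel beta gene, had -4.44 ± 2.13 (adjusted p = 0.677), but 1 cell held 75.7% of its summed CPM. Scn3a, known from the immature brain, was expressed in 11 cells and Scn2a1 in 9 cells, and Scn1a in 3.

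Kcna1 encodes a low-threshold Kv channel of axons (chromosome 6, 126640397 to 126646384, minus strand). Its Mki67-high sums ran from 0.0658 through a median of 0.612 to 15.6 CPM and its Mki67-low sums from 9.03 through 86.0 to 187 CPM. It was lower in Mki67-high sums in 5 of 6 library groups, with library group 6 as the exception (15.6 against 9.03 CPM). The edgeR log2 fold change was -5.17 ± 1.67 (adjusted p = 0.473) and DESeq2 gave -4.99 (adjusted p = 0.000793). Here the share of cells differed too, at 2 of 32 Mki67-high (6.25%, 1.73 to 20.1%) and 14 of 75 Mki67-low cells (18.7%, 11.5 to 28.9%), although these intervals overlap.

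Kcnc1, a channel of fast repolarization, had Mki67-high sums from 0.0658 through a median of 3.34 to 30.3 CPM and Mki67-low sums from 24.1 through 46.3 to 151 CPM. It was lower in 5 of 6 library groups, with library group 5 as the exception, and was expressed in 4 of 32 Mki67-high (12.5%) and 18 of 75 Mki67-low cells (24%). The log2 fold change was -3.08 ± 1.49 (edgeR adjusted p = 0.677). In contrast, Kcnh8 had an equal number of library groups in each direction (-4.94 ± 2.31, adjusted p = 0.674), and 1 cell held 74.95% of its summed CPM. Kcnd2 was the exception in the fitted direction (0.73 ± 1.82, adjusted p = 0.952), although lower in 4 of 6, and its highest Mki67-high sum was 922.5 CPM, while 1 cell held 86.8% of the Kcnd2 counts of the class.

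The auxiliary gene Kcnab2, which encodes a Kv beta subunit, had the highest positive fold change (6.85 ± 2.83, edgeR adjusted p = 0.644). Its Mki67-high sums ran from 0 through a median of 5.79 to 602 CPM and its Mki67-low sums from 0 through 0 to 7.34 CPM, with the highest value of both classes in library group 1. It was expressed in 5 cells in all. Kcne1l, of the Kcne family, was higher in 5 of 6 Mki67-high sums (2.45 ± 1.90, adjusted p = 0.807). Kcnma1, the BK channel, had a fitted change of 3.83 ± 2.19 (adjusted p = 0.725) although it was lower in 5 of 6. Library group 1 held 485 CPM, and without that library group the change was -3.05.

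The inward rectifiers Kcnj3 and Kcnj6 encode subunits of the channel that G proteins open, and they can assemble with each other. Kcnj6 (chromosome 16, 94748636 to 94997701, minus strand) had Mki67-high sums from 0.383 through a median of 2.30 to 70.8 CPM and Mki67-low sums from 29.0 through 86.0 to 149 CPM. It was lower in Mki67-high sums in 5 of 6, with library group 3 as the exception (log2 fold change -2.95 ± 1.41, edgeR adjusted p = 0.677). Kcnj3 (chromosome 2, 55435970 to 55598145, plus strand) ran from 0 through 26.7 to 473 CPM against 5.45 through 124 to 411 CPM, and was lower in 5 of 6 (-1.10 ± 1.52, adjusted p = 0.905). More Mki67-high cells expressed Kcnj3 (12 of 32, 37.5%, against 21 of 75, 28.0%), at a median of 148 against 584 CPM, as was seen for Scn8a.

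Kcnk2, which encodes a mechanosensitive K2P leak channel (chromosome 1, 189207930 to 189402273, minus strand), was the channel gene that was tested and lower in Mki67-high sums in every library group (6 of 6). Its Mki67-high sums ran from 0 through a median of 0.587 to 13.1 CPM and its Mki67-low sums from 1.72 through 34.5 to 101 CPM. The ranges overlapped, and the log2 fold change was -3.70 ± 1.96 (edgeR adjusted p = 0.706). It was expressed in 3 of 32 Mki67-high (9.38%) and 16 of 75 Mki67-low cells (21.3%). Kcnk1 showed no such order (4 of 6 lower, -0.75 ± 1.497, adjusted p = 0.935).

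**Figure D5:**
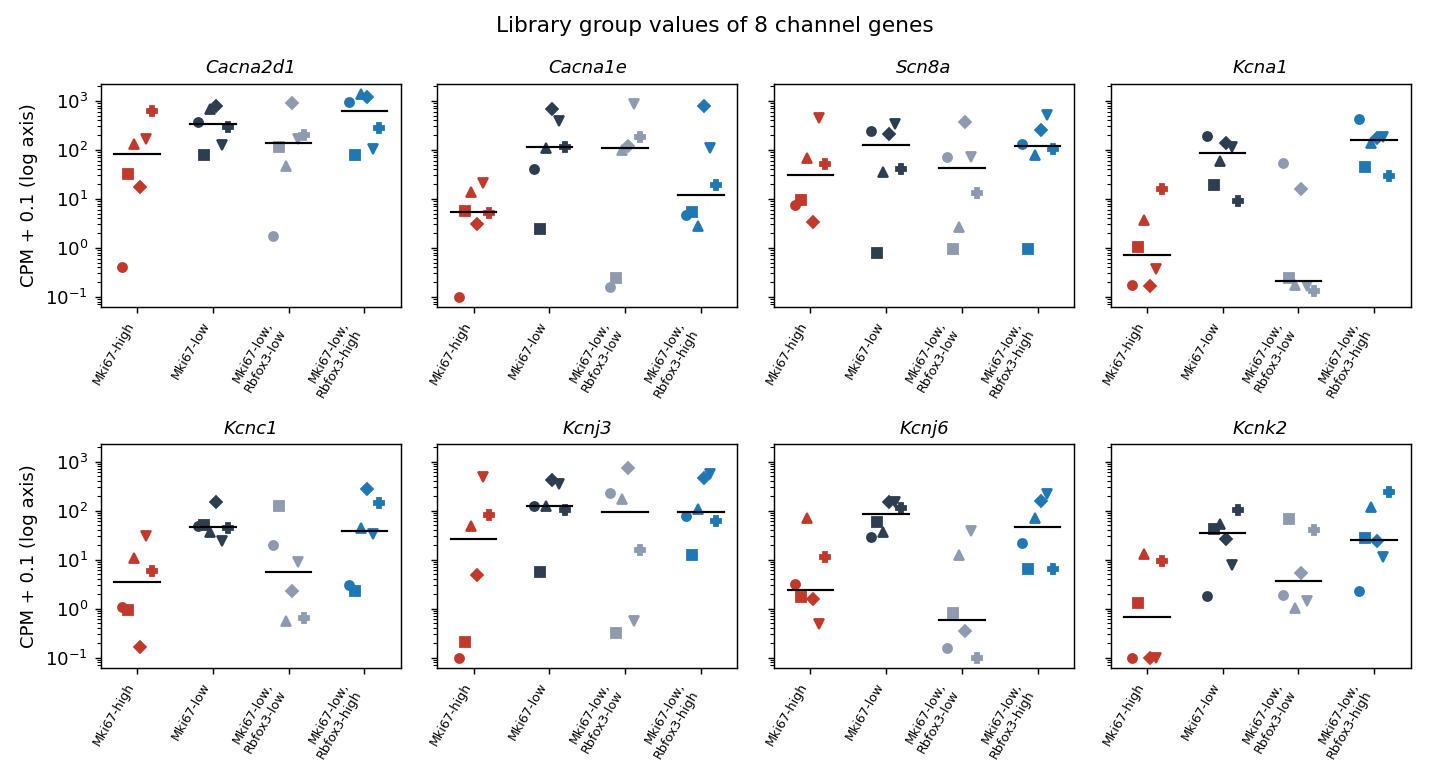
CPM + 0.1 on a log axis (y) of 8 channel genes in the sums of the 6 library groups, by class (x axis). Symbols stand for library groups and black lines for medians. Kcna1 and Kcnj6 lie higher in the Rbfox3-high than the Rbfox3-low sum of every library group, and Kcnk2 lies lower in every Mki67-high than Mki67-low sum.

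The comparison by Rbfox3 asked how channel genes differed among Mki67-low cells with high and low levels of this neuronal marker. The 72 genes together had 2572 ± 1358 CPM in Rbfox3-low sums, from 967 through a median of 2460 to 4815. In Rbfox3-high sums they had 3209 ± 977 CPM, from 1336 through 3421 to 4168. The sum was higher in Rbfox3-high cells in 4 of 6 library groups, and the ranges overlapped widely. Without cells carrying interneuron markers the means were 2978 ± 1442 and 3261 ± 1005 CPM, again higher in 4 of 6. Channel gene values at 10 CPM or more made up 7.12% in Rbfox3-low and 8.77% in Rbfox3-high cells, against 11.4% and 10.8% over all genes, and their medians were 113 and 194 CPM, against 151 and 159 over all genes. Rbfox3-high cells had 6.43 ± 1.27 channel genes at 10 CPM or more and Rbfox3-low cells 5.25 ± 0.742.

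The edgeR quasi-likelihood test called no channel gene here either (0 of 23 tested), where 0% of 5907 genes were called. At an unadjusted p under 0.05 it called 0 of 23 against a background of 4.49%. DESeq2 called 4 channel genes against a background of 9.8%, and limma-voom called none. The fitted log2 fold change was above 0 (higher in Rbfox3-high) in 16 of 23 channel genes, with a median of 0.94, and in 48.0% of all genes, with a median of -0.06. Both comparisons use the Mki67-low cells, so their directions are not independent of each other. By type, 3 of 4 alpha1 genes, both beta genes, both Kir genes, both K2P genes and 4 of 6 Kv pore genes lay above 0, and both gamma genes and Scn3b lay below.

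Kcna1 and Kcnj6 were higher in the Rbfox3-high sum of every library group (6 of 6). Kcna1 ran from 0.0309 through a median of 0.108 to 53.8 CPM in Rbfox3-low and from 29.1 through 155 to 416 CPM in Rbfox3-high sums, so that the classes overlapped only through library group 1 of the Rbfox3-low sums. Its log2 fold change was 3.91 ± 1.94 (edgeR adjusted p = 0.999), and over the alternatives it ran from 1.66 with other class limits to 8.02 with library group as a block. Kcna1 was expressed in 2 of 31 Rbfox3-low (6.45%, 1.79 to 20.7%) and 11 of 32 Rbfox3-high cells (34.4%, 20.4 to 51.7%).

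Kcnj6 ran from 0 through a median of 0.476 to 38.9 CPM in Rbfox3-low and from 6.34 through 46.1 to 217 CPM in Rbfox3-high sums (3.08 ± 1.97, edgeR adjusted p = 0.999). It was expressed in 3 of 31 Rbfox3-low (9.68%) and 11 of 32 Rbfox3-high cells (34.4%). Its partner Kcnj3 did not follow it, with 9 of 31 (29.0%) and 10 of 32 cells (31.2%), a fold change of 0.03 ± 1.49, and an equal number of library groups in each direction.

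Among the other widely expressed genes, Kcnk2 was higher in Rbfox3-high sums in 5 of 6 (1.85 ± 1.66), Cacna2d1 in 4 of 6 (1.49 ± 1.12) and Cacna1b in 3 of 6 (2.59 ± 1.80). Cacna2d1 ran from 1.65 through a median of 138 to 921 CPM in Rbfox3-low sums and from 78.3 through 607 to 1390 CPM in Rbfox3-high sums. Cacna1e showed no direction, being higher in 3 of 6 (-0.46 ± 1.74), and its Rbfox3-high median of 11.9 CPM lay below its Rbfox3-low median of 111 CPM. Cacng2 was lower in 4 of 6 Rbfox3-high sums (-2.27 ± 1.95). The beta gene Cacnb1 had the largest fitted change (5.19 ± 2.61), on 7 expressing cells in all.

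Markers of other cells moved with some channel genes, and their part in the results was not tested. The 5 cells carrying astroglial markers include the 2 many-gene cells, which expressed 29 and 31 channel genes and so raise the shares of many channel genes. Among the 5 cells, 4 expressed Kcnj10, the inward rectifier of astrocytes, against 4 of 104 other cells. The 5 cells held 9.39% of the summed CPM of Kcnj10, and their highest value was 82.9 CPM against 1018 CPM in the highest other cell. Of these 5 cells 1 expressed Kcnj16 at 1576 CPM, 61.4% of the summed CPM of that gene. Kcnn2 was expressed in 3 of the 5 cells and in 5 of 104 others, with 14.9% of its summed CPM in the 5 cells. Kcnj10, Kcnj16 and Kcnn2 were chosen after their values were seen. Interneuron markers summed to 86.6 to 1645 CPM in Rbfox3-low and 0.0326 to 171 CPM in Rbfox3-high sums, the direction opposite to that of Kcna1 and Kcnj6. Astroglial markers had a median of 2019 CPM (5.05 to 5059) in Rbfox3-low and 438 CPM (57.3 to 919) in Rbfox3-high sums.

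Of 30 channel partner genes (anchors, auxiliary proteins, sodium pumps and the repressor Rest), 27 were listed, and 22 were tested between the Mki67 classes. None was called by edgeR and 4 of 22 had an unadjusted p under 0.05, where the background was 7.33%. Of the 22, 15 lay below and 7 above 0, with a median of -0.58, against 54.8% below 0 and a median of -0.18 over all genes. Among the 4, and chosen after their values were seen, were the anchor Ank2 (247 against 1049 CPM, -2.35 ± 0.64, adjusted p = 0.372), the A-type channel partner Dpp6 (1.96 against 66.4 CPM, -5.40 ± 1.76, adjusted p = 0.473) and Unc79 of the sodium leak channel complex (-2.97 ± 1.28, adjusted p = 0.652). Ank2 and Dpp6 were lower in Mki67-high sums in 6 of 6 library groups. Unc80 and Nalcn, of the same complex as Unc79, did not share its direction. Unc80 was higher in Mki67-high sums in 5 of 6 library groups (4.13 ± 2.17, edgeR adjusted p = 0.705). Nalcn was not tested, and was higher in 3 library groups and lower in 1. Rest was expressed in 7 cells. Between the Rbfox3 classes 13 partner genes were tested, 4 above and 9 below 0 (median -0.40, against -0.06 over all genes), and none was called.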

How the data were processed

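Single cells from P7 mouse cerebella were sequenced with Smart-seq by the study. According to its methods, reads were aligned to mm10 with STAR 2.4.1d and counted per gene with HTSeq-count 0.6.1; the annotation and strand setting are not given in the sources used here. The raw counts deposited by the authors were used without normalization or rounding, in 1 table of 15973 genes and 109 cells. Columns were matched to samples by their titles, and no column was left unused. All cells were kept in the main comparisons, and no doublet caller was run.

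Counts were summed per class and library group, and channel genes were tested among all genes with edgeR 4.0.16 (R 4.3.3; TMM, filterByExpr, glmQLFit and glmQLFTest, Benjamini-Hochberg adjustment, adjusted p under 0.05). The standard error of a fold change was derived from its quasi-likelihood F statistic. Mki67, and in the second fit Rbfox3, stayed out of the test. The method was tested on simulated data. Alternatives were DESeq2 1.42.0, limma-voom (limma 3.58.1), DESeq2 size factors, no filter on low counts, library group as a replicate block, each library group left out, sums of at least 2 cells, other class limits (50 CPM or more against 0 counts), and fits without 5 cells carrying astroglial markers or 3 cells of unusual depth (under 100000 counts or over 10000 genes). Equal numbers of cells per class and fits without 8 cells carrying interneuron markers were added after the data were seen.

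CPM was computed from the raw counts, and per kilobase with merged exons of the GENCODE annotation of GRCm38. The libraries carry no molecular identifiers, so Wilson intervals cover counting error only, and cells of 1 library group share their source. The members and lists were chosen with earlier results of these data known. Named were the 3 members per type with the highest CPM per kilobase, up to 5 tested members per direction and comparison with 1 direction in all library groups, any member or partner called, and marker genes. Further genes were picked with their values in view. Some genes are not reported here by name, though they are part of the counts.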

Additional observations from a re-analysis of the deposited data

Results flagged for a closer look

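Across the genes described most closely, 42 groups of 6 library group values were examined for a value far from the others, and in 17 the gap of the highest or lowest value to its neighbour exceeded Dixon's 95% critical ratio for 6 values. Chance gives about 1 in 20 such groups where values are normally distributed, which sums carried by single cells need not be. In 11 of these the value was the highest Mki67-high sum. Library group 1 was highest for Kcnk1 (217 CPM) and Kcnab2 (602 CPM), library group 2 for Cacna1b (342 CPM), and library group 3 for Kcnj6 (70.8 CPM) and Kcnh8 (11.9 CPM). Library group 5 was highest for Kcnj3 (473 CPM), Kcnc1 (30.3 CPM) and Scn8a (439 CPM), and library group 6 for Kcna1 (15.6 CPM), Cacna1a (97.6 CPM) and Cacna2d1 (632 CPM).

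In Mki67-low sums the highest values stood apart for Kcnab2 in library group 1 (7.34 CPM), Kcnc1 in library group 4 (151 CPM) and Kcnh8 in library group 5 (346 CPM). In Rbfox3-low sums they did so for Kcna1 in library group 1 (53.8 CPM) and Kcnj6 in library group 5 (38.9 CPM). The summed CPM of all channel genes in Rbfox3-high cells was lowest in library group 2 (1336 CPM). A single cell held 73.4% of the Kcna1 counts, 80.3% of the Kcnj6 counts and 72.9% of the Scn8a counts of the Mki67-high class.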

How the results depend on the processing

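DESeq2 on the sums was the alternative that called channel genes, 5 between the Mki67 classes and 4 between the Rbfox3 classes, where edgeR called 0 and 0. The first included Cacna1e (-4.87), Kcna1 (-4.99) and Kcnj12 (-24.4), and the second were Cacnb3, Kcnab1, Kcna2 and Kcnj16. Kcnj12 was 0 in every Mki67-high sum and at 10 CPM or more in 2 of 75 Mki67-low cells. Kcnab1, Kcna2 and Kcnj16 were each at 10 CPM or more in 2 of 31 Rbfox3-low and 0 of 32 Rbfox3-high cells. Cacnb3 was so in 1 of 31 and 2 of 32. With library group as a replicate block, 0 and 0 channel genes were called, and the medians of their log2 fold changes were -3.21 and 1.77. The study describes independent batches, but the labels do not state that the library groups are these. Deviations of the paired sums from their class means correlated at 0.020 to 0.061 between the Mki67 classes and -0.013 to 0.043 between the Rbfox3 classes. Their medians were 0.035 and 0.030, against -0.011 and -0.008 between sums of different library groups. In 4 and 2 of 6 library groups, the sum correlated best with that of its own library group. The main fits left the pairing out, whereas the counts of library groups by direction use it. Each library group left out in turn left 0 called in both comparisons, with medians from -2.29 to -0.96 and from 0.61 to 1.58. With equal numbers of cells the medians were -1.57 (27 genes tested) and 0.70 (21 tested), and without cells carrying interneuron markers -1.30 and 0.73. With 50 CPM or more against 0 counts as class limits, 0 and 0 were called and the medians were -2.27 and 3.94. The Rbfox3-low sums then held 6 cells of 3 library groups, and Kcnj6 moved to 10.6, Kcnk2 to 13.2, Kcna1 to 1.66 and Cacng2 from -2.27 to 2.34. DESeq2 size factors moved the median of all genes from -0.18 to 0.09 and that of channel genes to -1.38. The number of channel genes detected per cell depended on the limit. In Mki67-high cells it was 16.25 with at least 1 count, 10.3 with at least 5 counts and 6.51 at 10 CPM. In Mki67-low cells it was 14.8, 8.11 and 5.93. After thinning to 1110182 counts it was 12.6 and 11.2. Of 43 fold changes of named genes, 25 kept their sign under every alternative run and 18 changed it under at least 1. The requirement of 2 cells per sum left every sum as it was. Of the 36 channel genes not tested between the Mki67 classes, 28 were at 10 CPM or more in 1 to 9 cells and 8 in none.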

Other observations

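The 8 cells carrying interneuron markers differed from the 101 others in some channel genes, which were chosen after their values were seen. The Kv channel Kcna2 was at 10 CPM or more in 3 of 8 of these cells and in 1 of 101 others, Cacna2d3 in 2 and 0, Kcnrg in 2 and 0, Cacnb4 in 3 and 8, and the L-type channel Cacna1c in 3 and 6. Several widely expressed genes went the other way. Cacna2d1 was at 10 CPM or more in 0 of these 8 cells and in 53 of 101 others. For Cacng2 these numbers were 0 and 27, for Kcnj6 0 and 25, for Kcnk1 0 and 23, and for Cacna1e 0 and 21. Of the 8 cells, 6 were Rbfox3-low. Of the 4 channel genes that DESeq2 called between the Rbfox3 classes, Kcna2 was 1. The cell that held 75.4% of its summed CPM had Rbfox3 between the limits and was in neither class of that comparison. Within the classes, Kcna2 was at 10 CPM or more in 2 of 31 Rbfox3-low and 0 of 32 Rbfox3-high cells.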
